A study of Mus musculus with 12 samples.

Results

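TRBV2, TRBV3, TRBV4 and TRBV5 are the 4 single-copy variable (V) segments at the 5′ end of the main V cluster of the mouse T cell receptor (TCR) beta locus. Clonotypes were counted as members when the first gene among their V hits was 1 of these 4, which gave 30478 of 113665 clonotypes and 444664 of 1716882 unique molecular identifiers (UMIs, each marking 1 cDNA molecule). Members thus held 26.8% of clonotypes and 25.9% of UMIs over 12 libraries, split into 5287 clonotypes for TRBV2, 9282 for TRBV3, 5058 for TRBV4 and 10851 for TRBV5. A clonotype is a distinct nucleotide sequence of the complementarity-determining region 3 (CDR3), the loop of the receptor that contacts peptide.

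The libraries came from CD4+ T cells of C57BL/6 background, recovered 6 weeks after naive CD4+ CD25- CD44- CD62L+ donor cells had been injected into Rag2-/- mice, which lack T and B cells of their own and develop colitis after this transfer. WT donors were PRKAA1 fl/fl littermates without Cre, and KO donors were PRKAA1 fl/fl with CD4-Cre, a transgene that deletes the AMPKα1 subunit of the energy sensor AMPK from T cells from the stage at which Cd4 is switched on. In the paper, recipients of WT cells lost weight, while recipients of KO cells kept theirs and had only mild inflammation. Donor genotype and severity of disease in the recipient thus went together. Cells of the spleen and of the mesenteric lymph node (mLN) were sequenced for WT replicates 1, 3 and 4 and KO replicates 1, 2 and 3, so that each of 4 groups held 3 mice, from a single experiment. The beta locus is rearranged in the thymus before CD4-Cre becomes active, and PRKAA1 itself, like markers of cell type, was not measured in TCR libraries.

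Library totals ranged from 2488 UMIs (KO3 mLN) to 493287 (WT3 spleen). In 7 libraries, 66.5 to 84.2% of clonotypes had 1 UMI, and 26.1 to 38.3% of these had a J end that is unusual for its J segment. In the other 5 (both of WT1, both of KO1 and KO3 mLN) the same values were 31.0 to 41.8% and 2.42 to 5.85%. Both kinds occurred in both genotypes, and values within each kind stand beside the usage results. Rearrangement features were therefore taken from clonotypes with at least 2 UMIs in a mouse, both organs joined.

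A TCR beta chain is assembled when 1 V segment is cut at its recombination signal, a heptamer and a nonamer separated by a spacer, and joined to a D and a J segment. Nucleases trim the ends and random bases are added before ligation, so the reading frame is lost in many joints. A joint is called productive when it is in frame and free of stop codons. A T cell whose first rearrangement failed can rearrange the other allele, and both transcripts can then be found in the same cell.

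The germline 3′ ends of the 4 segments are shown because bases kept or removed and the stop codons of TRBV4 are read against them below. Whether the ends shape the other results was not tested. The end sequences were read from the RefSeq genome GRCm38.p6, in which all 4 genes were found on the plus strand of chromosome 6 with 2 exons each. The capitals mark the 17 bases of exon 2 that enter the CDR3, from the codon of the conserved cysteine to the last V base, and the 39 bases in lower case are the adjoining recombination signal.
TRBV2 (chr6:41047979-41048034): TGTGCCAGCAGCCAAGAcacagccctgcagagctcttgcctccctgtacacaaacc
TRBV3 (chr6:41048808-41048863): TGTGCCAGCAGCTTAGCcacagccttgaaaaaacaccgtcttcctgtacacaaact
TRBV4 (chr6:41059870-41059925): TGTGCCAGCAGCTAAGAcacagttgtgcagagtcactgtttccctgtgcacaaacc
TRBV5 (chr6:41062787-41062842): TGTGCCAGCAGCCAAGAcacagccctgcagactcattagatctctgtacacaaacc

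The first 12 bases of these ends were identical in the 4 segments and encode Cys-Ala-Ser-Ser. TRBV2 and TRBV5 had the same 17 bases, with glutamine as codon 5, and also the same heptamer and nonamer, while their spacers of 23 bases differed at 8 positions. Counted from 1 at the first base of the cysteine codon, TRBV4 differed from TRBV2 by the single substitution C13T, which makes codon 5 of an untrimmed TRBV4 end the stop codon taa. TRBV3 differed from TRBV2 by C13T, A14T and A17C and has leucine as codon 5. Against the textbook heptamer cacagtg, TRBV4 had 1 mismatch and the others 2, and against the nonamer acaaaaacc TRBV2 and TRBV5 had 1 and TRBV3 and TRBV4 had 2. The bases seen most often in untrimmed clonotypes of the deposited tables equalled the genome for all 4 segments. Of the 18 V segments with enough clonotypes to be compared, TRBV4 alone had a stop codon in its untrimmed end.

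In the same annotation the genes lie at chr6:41047556-41047995 (TRBV2), chr6:41048394-41048824 (TRBV3), chr6:41059443-41059886 (TRBV4) and chr6:41062359-41062803 (TRBV5). They span 15248 bases, with 398 bases between TRBV2 and TRBV3 and 10618 between TRBV3 and TRBV4. TRBV1 ends 155670 bases upstream of TRBV2, and TRBV6 to TRBV11, which follow TRBV5, are annotated as pseudogenes.

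Use of each segment, its percent of a library's UMIs, was compared first, since the study asked whether AMPK-deficient T cells expand with an altered TCR repertoire. TRBV5 was the most used of the 4, with a mean of 9.01% over 12 libraries (second of all V segments), followed by TRBV3 with 7.41%, TRBV4 with 4.29% and TRBV2 with 4.05%. The ranges of neighbours in this order overlapped, at 4.68 to 12.7% for TRBV5, 4.30 to 10.96% for TRBV3, 2.21 to 6.19% for TRBV4 and 2.04 to 11.1% for TRBV2. Over mice, TRBV5, TRBV3 and TRBV4 had coefficients of variation of 25.8, 26.2 and 30.7%, which ranked 3, 4 and 6 from the lowest of 22 segments, while TRBV2 had 64.1% and ranked 16.

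TRBV2 made up 2.32, 2.96 and 3.04% of spleen UMIs in WT1, WT3 and WT4 and 2.22, 5.23 and 7.08% in KO1, KO2 and KO3. In the mLN its share was 2.04, 2.72 and 4.08% in the WT mice and 2.24, 3.66 and 11.1% in the KO mice. KO3 was the highest mouse in both organs. KO1 was the lowest mouse in spleen and lay among the WT mice in mLN, so the genotypes overlapped. The KO3 mLN value rests on 275 of 2488 UMIs and has a Wilson 95% interval of 9.88 to 12.3%, which, like all such intervals, covers counting error only. By edgeR's quasi-likelihood test the log2 fold change of KO over WT was 0.80 (SE 0.58, adjusted p = 0.685) in spleen and 0.93 (SE 0.64, adjusted p = 0.705) in mLN. Without KO3 the estimates were 0.43 in spleen and 0.0025 in mLN.

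TRBV5 made up 4.68, 10.3 and 9.29% of spleen UMIs in the WT mice and 11.9, 9.86 and 12.7% in the KO mice. In the mLN it made up 4.80, 8.16 and 10.3% in the WT mice and 10.2, 6.88 and 8.92% in the KO mice. WT1 was low in both organs, and the genotypes overlapped in each organ. The log2 fold changes were 0.51 (SE 0.48, adjusted p = 0.685) in spleen and 0.16 (SE 0.42, adjusted p = 0.83) in mLN by edgeR. The spleen estimate was 0.24 without WT1, and 0.01 when clonotypes were counted instead of UMIs.

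TRBV3 made up 7.41, 6.60 and 10.96% of spleen UMIs in the WT mice and 7.35, 6.19 and 5.37% in the KO mice. In the mLN the values were 10.1, 6.08 and 9.28% in the WT mice and 8.89, 6.34 and 4.30% in the KO mice, so KO3 was lowest in both organs. TRBV4 made up 4.28, 6.17 and 2.88% of spleen UMIs and 6.19, 5.29 and 3.44% of mLN UMIs in the WT mice. In the KO mice it made up 2.21, 5.51 and 3.86% in spleen and 2.41, 4.52 and 4.66% in mLN, with all groups overlapping. The log2 fold changes were -0.40 and -0.38 for TRBV3 and -0.20 and -0.37 for TRBV4 in spleen and mLN, with standard errors of 0.44 to 0.57. With 1 mouse left out, TRBV3 ranged from -0.54 to -0.15 in spleen, the latter without WT4, and from -0.67 (without KO1) to -0.16 (without KO3) in mLN. TRBV4 ranged from -0.55 (without KO2) to 0.11 (without WT3) in spleen and from -0.57 (without WT4) to -0.11 (without KO1) in mLN.

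None of the 4 segments passed the test between genotypes. Over all V segments tested, 2 of 25 (8.00%) passed an adjusted p of 0.05 in spleen and 0 of 23 (0%) in mLN, where 1 segment had an unadjusted p under 0.05 and DESeq2 also called 0. For TRBV5 the KO minus WT difference in spleen was 7.26 points within the kind of library with few unusual J ends (1 mouse against 1) and 1.52 points within the other kind (2 against 2). In the mLN, where the kinds held 1 WT against 2 KO and 2 WT against 1 KO libraries, these differences were 4.77 and -2.37 points. For TRBV2 they were -0.10 and 3.15 points in spleen and 4.61 and 0.26 points in mLN. The larger TRBV2 value lay in opposite kinds in spleen and mLN, each time the kind that held KO3. For TRBV3 the differences were -0.061 and -3.00 points in spleen and -3.53 and -1.34 points in mLN. For TRBV4 they were -2.06 and 0.16 points in spleen and -2.65 and 0.16 points in mLN, and so changed sign between the kinds. The part of library kind in these values was not tested.

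**Figure D1:**
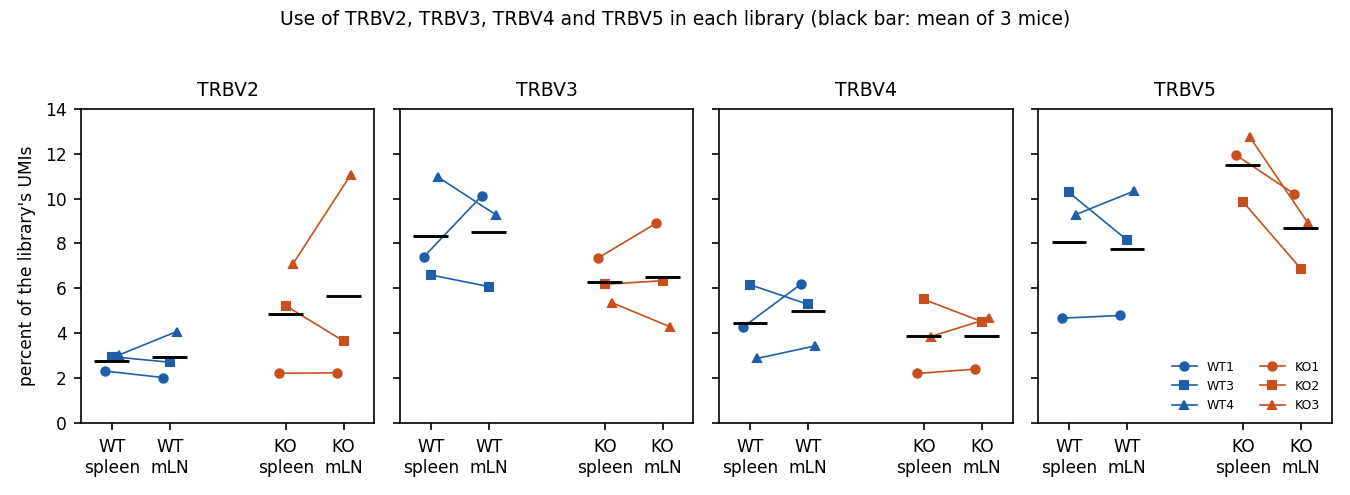
Percent of each library's UMIs (vertical axis) assigned to TRBV2, TRBV3, TRBV4 and TRBV5, with lines joining the spleen and mLN of a mouse and black bars at the mean of 3 mice. WT and KO points overlap in every panel, and TRBV2 is highest in KO3, at 7.08% in spleen and 11.1% in mLN.

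Between organs of the same mouse, the mean difference (mLN minus spleen) was 0.49 ± 1.90 points for TRBV2, 0.19 ± 1.66 for TRBV3, 0.27 ± 1.09 for TRBV4 and -1.58 ± 1.85 for TRBV5 (SD, n = 6 mice). TRBV5 was lower in the mLN of 4 mice, among them all 3 KO mice (by 1.72, 2.98 and 3.82 points), and higher in WT1 and WT4. With the mouse as a block, edgeR gave a log2 fold change of -0.23 for TRBV5 (SE 0.15, adjusted p = 0.538), and no V segment of 25 passed (0%; 3 had an unadjusted p under 0.05, and DESeq2 called 1). The genotype by organ term for TRBV5 was -0.37 (SE 0.27, adjusted p = 0.903) by edgeR, and again 0 of 25 passed (0%; 2 with an unadjusted p under 0.05, and 0 by DESeq2).

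The segments whose log2 use followed each member most closely over the 12 libraries, as a description, were TRBV14 for TRBV2 (Pearson's r = 0.90), TRBV29 for TRBV3 (0.70), TRBV30 for TRBV4 (0.49) and TRBV12-2 for TRBV5 (0.72). The 12 points come from 6 mice and share library depth.

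The length of the CDR3 separated the 4 segments into pairs. TRBV5 and TRBV2, with identical germline ends, had the longest and second longest mean CDR3 of 18 V segments, and TRBV3 and TRBV4 lay 11th and 14th. In productive clonotypes of TRBV5 the mean length per mouse was 42.9 nucleotides at the lowest, 43.1 at the median and 43.6 at the highest, against 41.1, 41.2 and 41.2 in all other V segments of the same mice. For TRBV2 the values were 42.6, 43.0 and 43.2 nucleotides. Every mouse had longer CDR3s in both segments than in the rest. The difference from other V segments was 2.02 ± 0.24 nucleotides for TRBV5 and 1.68 ± 0.18 for TRBV2 (SD, n = 6, exact sign-flip test over mice, adjusted p = 0.0433 for each).

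TRBV3 was shorter than the other V segments in 6 of 6 mice, by -0.48 ± 0.15 nucleotides (exact sign-flip test, adjusted p = 0.0433), with a mean of 40.9. TRBV4 had a mean of 40.8 and differed by -0.60 ± 0.41 nucleotides, lower in 5 of 6 mice (exact sign-flip test, adjusted p = 0.0804). Of the 18 segments, 13 (72.2%) passed this test in 1 direction or the other, so passing the test does not set these 3 members apart. With 6 mice the smallest p is 0.03125, and an adjusted p below 0.05 needs at least 12 of 18 segments to reach it. The threshold was lost for all segments when clonotypes of 1 UMI were added, when at least 10 UMIs were required, when clonotypes were weighted by abundance and in spleen alone, while the TRBV5 difference stayed between 1.83 and 2.72 nucleotides and that of TRBV2 between 1.30 and 1.90.

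The difference showed in the classes of CDR3 length. In TRBV5 and TRBV2, 32.1% ± 3.86 and 32.9% ± 4.40 of productive CDR3s had 45 nucleotides, against 17.7% ± 2.11 in TRBV3 and 17.9% ± 2.53 in TRBV4 (SD, n = 6). The 39-nucleotide class was larger in TRBV3 (23.9% ± 3.13) and TRBV4 (20.3% ± 4.19) than in TRBV5 (15.1% ± 2.28) or TRBV2 (14.4% ± 5.18). TRBV5 exceeded TRBV2 by 0.25 ± 0.27 nucleotides, with a range over mice of -0.085 to 0.58 that includes 0.

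The part of the CDR3 that came from the V segment was again longest in TRBV5 and TRBV2, while TRBV3 and TRBV4 parted. Productive TRBV5 clonotypes kept 15.2 V bases at the lowest mouse, 15.4 at the median and 15.7 at the highest, and TRBV2 clonotypes 14.9, 15.3 and 15.6, the highest and second highest means of 18 segments. TRBV4 kept 12.6, 12.7 and 12.8 bases and ranked 16th. The other V segments of the same mice kept 13.4 to 13.9 bases. Against them, TRBV5 differed by 1.85 ± 0.11, TRBV2 by 1.69 ± 0.17 and TRBV4 by -1.05 ± 0.14 bases (SD, n = 6, exact sign-flip test, adjusted p = 0.0433 each, with 6 of 6 mice in 1 direction). TRBV3 differed by 0.15 ± 0.087 bases, higher in 5 of 6 mice (exact sign-flip test, adjusted p = 0.075). For TRBV4 the count of productive clonotypes leaves out in-frame joints that keep its stop codon, which lowers this mean. Here too 13 of 18 segments (72.2%) passed, and 0 when at least 10 UMIs were required or clonotypes were weighted by abundance. The germline ends of the 18 segments are themselves of unequal length.

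**Figure D2:**
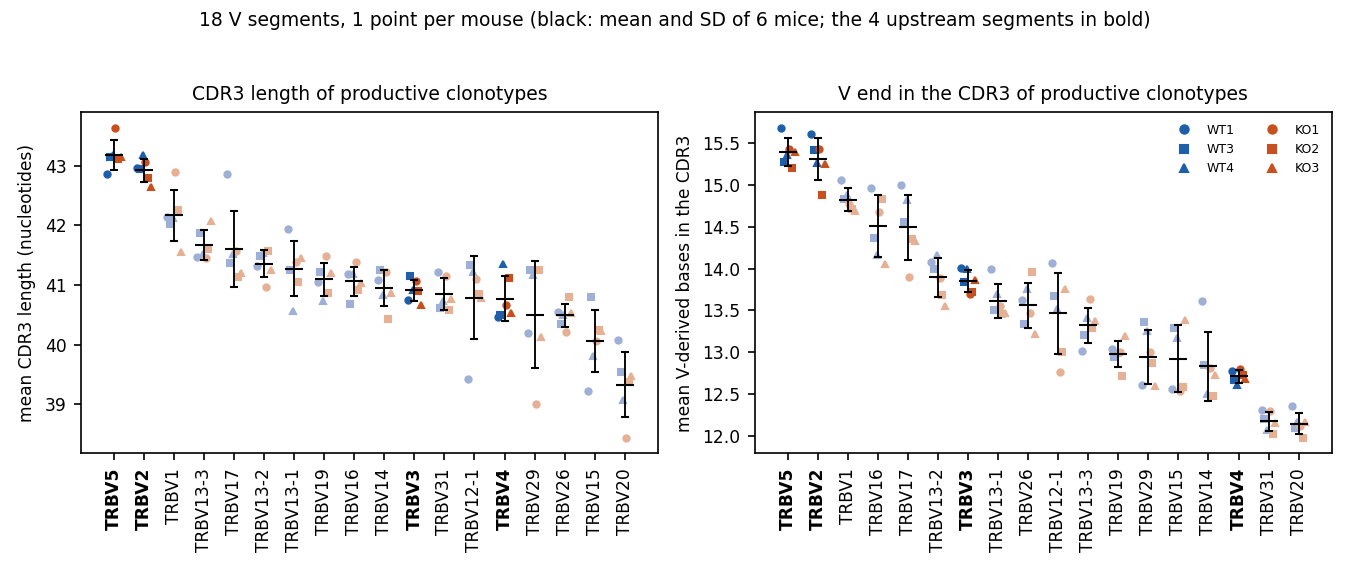
Mean CDR3 length in nucleotides (left) and mean number of V-derived bases in the CDR3 (right) of productive clonotypes for 18 V segments, 1 point per mouse, with the mean and SD of 6 mice in black. TRBV5 and TRBV2 stand at the top of both panels, while TRBV4 lies 14th in length and 16th in V bases.

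The 4 members share an end of 17 bases, so bases removed can be set side by side. In TRBV4 the productive values again leave out in-frame joints that keep its stop codon, which raises the loss. Productive clonotypes lost 1.61 ± 0.17 bases in TRBV5, 1.70 ± 0.26 in TRBV2, 3.15 ± 0.13 in TRBV3 and 4.30 ± 0.065 in TRBV4 (SD, n = 6), and the mouse ranges of TRBV3 and TRBV4 overlapped neither each other nor those of the other pair. The end was fully kept in 45.4% ± 2.66 of TRBV5, 39.2% ± 5.60 of TRBV2, 5.92% ± 1.99 of TRBV3 and 1.16% ± 1.34 of TRBV4 productive clonotypes. Out-of-frame clonotypes lost 2.02 ± 0.37 bases in TRBV5, 1.52 ± 0.69 in TRBV2, 3.22 ± 1.24 in TRBV3 and 3.74 ± 0.34 in TRBV4. There the mouse ranges of TRBV3 and TRBV4 overlapped, and the full end was kept in 4.87% ± 3.46 and 17.5% ± 16.2. The TRBV3 loss includes WT1 at 1 base from 1 clonotype, against 3.0 to 4.4 bases in the other mice. The TRBV4 share of full ends includes WT1 at 50% of 10 clonotypes, against 6.25 to 14.9% in the other mice. In productive clonotypes the stretch between V and J bases was of similar length in all 4, at 8.55 to 9.07 bases on average.

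Codon 5 was read in productive CDR3s only. Glutamine, the germline residue, stood there in 69.6% ± 3.11 of productive TRBV5 and 73.0% ± 5.37 of TRBV2 CDR3s. In TRBV3 the germline leucine stood there in 47.5% ± 6.12, with serine next at 12.2% ± 2.71. For TRBV4 the definition of productive leaves out every CDR3 with the germline codon taa, so no germline residue could stand there. Tyrosine, which shares the first bases of that stop codon, stood there in 20.1% ± 5.26, leucine in 13.9% ± 3.55, proline in 12.5% ± 3.37 and serine in 11.1% ± 5.05. The start Cys-Ala-Ser-Ser was retained in 91.5% (TRBV4) to 97.1% (TRBV2) of CDR3s.

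TRBV4 stood out for rearrangements that cannot make a receptor. Of its in-frame clonotypes, 4.25% carried a stop codon in the lowest mouse, 7.93% at the median and 11.4% in the highest, against 0 to 1.03% in the other V segments of the same mice. In TRBV2, TRBV3 and TRBV5 the mouse values were 0 to 1.21%, 0 to 1.82% and 0 to 0.477%. TRBV4 was the highest of 18 segments and exceeded the other V segments by 7.22 ± 2.80 points, higher in 6 of 6 mice (SD, exact sign-flip test, p = 0.03125, the smallest it can give, adjusted p = 0.113). Weighted by abundance, the difference was 2.33 points. No segment of 18 passed after adjustment (0%; 5 reached the smallest p). Of the 53 in-frame TRBV4 clonotypes with a stop, 51 had it at codon 5, of which 44 were taa and 7 tag. TRBV2, TRBV3 and TRBV5 had 6, 6 and 5 in-frame clonotypes with a stop. This comparison was added after the sequences had been seen.

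The 15 bases that complete codon 5 divide TRBV4 joints by frame. At least 15 V bases were kept in 3.85% ± 2.30 of productive TRBV4 clonotypes (31 of 647), in 40.8% ± 7.30 of those out of frame (90 of 234) and in 87.6% ± 13.8 of those in frame with a stop (45 of 53). All 31 productive ones had another codon than taa at that place, which the alignment allowed as a mismatch, as the definition of productive requires. In TRBV2 and TRBV5 the productive and out-of-frame values were 68.7% ± 4.99 and 75.2% ± 12.7, and 69.2% ± 4.10 and 60.2% ± 8.84, and in TRBV3 they were 40.9% ± 3.60 and 43.3% ± 30.7. The TRBV3 out-of-frame mean includes WT1 at 100% from 1 clonotype. Over the 5 mice with at least 5 such clonotypes it was 32.0% ± 14.7, and over all mice pooled 55 of 147 (37.4%), both below the productive value. For TRBV4 the low productive value follows from the definition, since an in-frame joint that keeps the germline codon 5 has a stop and is not counted as productive. The mean difference in V bases between productive and out-of-frame TRBV4 clonotypes, -0.54 ± 0.37 (SD, n = 6), is therefore given as a description. Over all 18 segments 0 passed the exact sign-flip test of this difference (0%; 3 reached the smallest p).

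**Figure D3:**
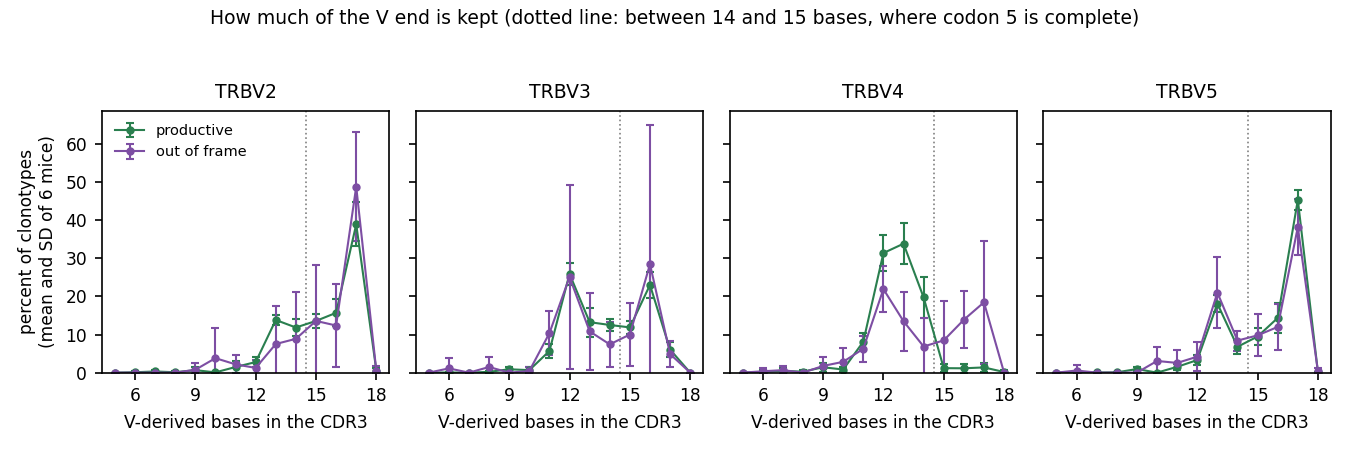
Percent of productive (green) and out-of-frame (purple) clonotypes by the number of V-derived bases in the CDR3, mean and SD of 6 mice, for the 4 segments. In TRBV4 the productive curve falls to near 0 from 15 bases on, where 40.8% of out-of-frame clonotypes lie, while in TRBV2 and TRBV5 both curves peak at the full 17 bases. The wide error bars of out-of-frame TRBV3 include WT1, which had 1 such clonotype.

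Out-of-frame clonotypes were also more frequent in TRBV4. Their share was 18.9, 20.9 and 23.6% in WT1, WT3 and WT4 and 24.6, 29.9 and 34.1% in KO1, KO2 and KO3, against 11.98 to 18.8% in other V segments of these mice. TRBV3 had 1.20, 9.66 and 8.76% in the WT mice and 7.09, 14.1 and 8.33% in the KO mice, the lowest mean (8.19%) of 18 segments, and TRBV4 ranked 3 from the highest (25.3%). The differences from other V segments were 10.5 ± 4.62 points for TRBV4 (higher in 6 of 6 mice) and -7.80 ± 2.71 for TRBV3, -4.41 ± 2.01 for TRBV2 and -2.36 ± 1.67 for TRBV5 (lower in 6 of 6 mice each). All 4 reached the smallest p of the exact sign-flip test (p = 0.03125), as did 10 of the 18 segments, which gave an adjusted p of 0.0563 and no call (0%). Weighted by abundance, TRBV4 and TRBV3 (-3.84 points) still reached the smallest p, while the differences were -1.71 (exact sign-flip test, p = 0.125) for TRBV2 and -0.163 (p = 0.844) for TRBV5. TRBV2 and TRBV5 also missed it when at least 10 UMIs were required (exact sign-flip test, p = 0.125 and 0.156), and TRBV5 with clonotypes of 1 UMI (p = 0.125). Likely copies of a productive clonotype with 1 base inserted or lost were rare among out-of-frame members, at 0.427 to 3.39% of them.

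Put as shares of the repertoire, TRBV4 gave 3.96% ± 0.48 of productive and 7.96% ± 1.36 of out-of-frame clonotypes (ranges over mice 3.39 to 4.58% and 6.33 to 10.2%). TRBV3 gave 8.94% ± 0.96 and 4.24% ± 1.94. TRBV2 gave 5.98% ± 0.97 and 4.10% ± 0.55 (ranges 4.84 to 7.44% and 3.14 to 4.79%), and TRBV5 9.38% ± 0.51 and 7.82% ± 0.91. These shares restate the out-of-frame comparison above, in which 0 of 18 segments passed, and were not computed for the other V segments. The order of the 4 among out-of-frame joints (TRBV4 and TRBV5, then TRBV3 and TRBV2) thus differed from that among productive ones. Of TRBV4 UMIs, 20.8% ± 9.22 were in non-productive clonotypes, from 11.9% in WT3 to 37.3% in KO1, against 1.07 to 4.28% on average in the other 3.

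**Figure D4:**
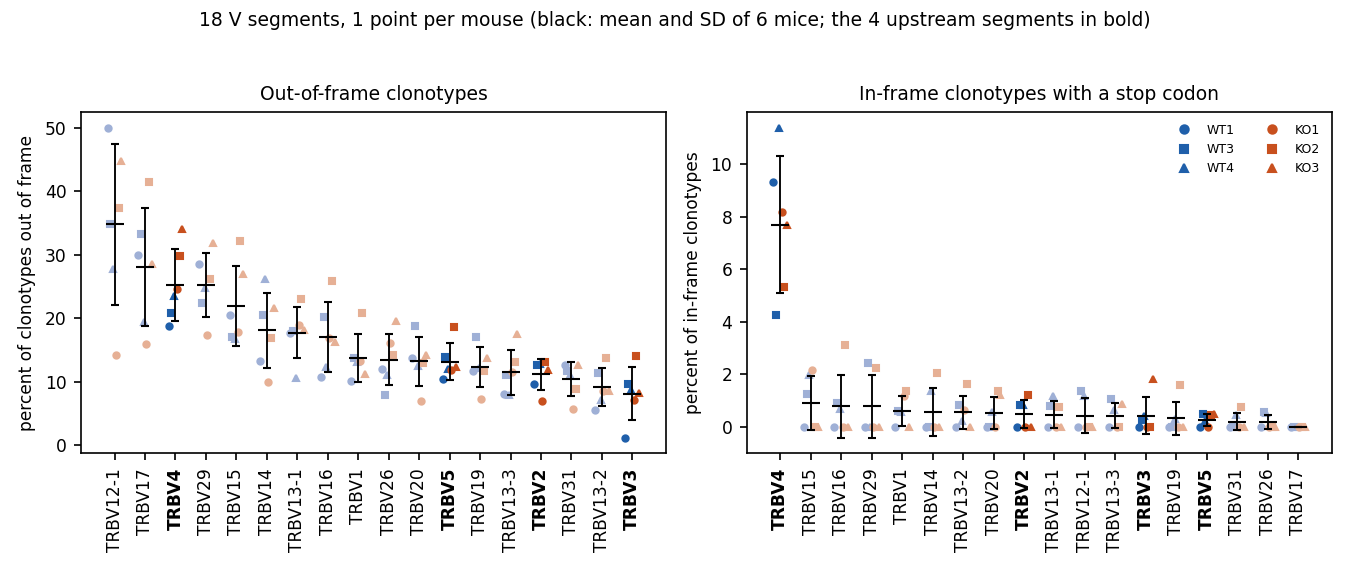
Percent of clonotypes that were out of frame (left) and percent of in-frame clonotypes with a stop codon (right) for 18 V segments, 1 point per mouse, with the mean and SD of 6 mice in black. TRBV4 is highest for stop codons (mean 7.68%) and ranks 3 for frame loss, and TRBV3 has the lowest out-of-frame mean (8.19%).

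The J segments were compared next. Productive clonotypes used the TRBJ2 cluster in 63.9% ± 4.21 (TRBV2), 68.9% ± 2.24 (TRBV3), 67.6% ± 3.81 (TRBV4) and 66.7% ± 3.82 (TRBV5) of cases (SD, n = 6). TRBV3 exceeded other V segments by 3.21 ± 2.88 points, in 6 of 6 mice (exact sign-flip test, adjusted p = 0.188), and no segment of 18 passed (0%; 3 had the smallest p). TRBJ2-7 was the J segment with most clonotypes in all 6 mice for TRBV5, in 5 for TRBV3, in 4 for TRBV2 and in 2 for TRBV4. Its means were 16.4 to 20.3%, against 17.9 to 18.1% in other V segments of the same mice. In KO1 it was tied in TRBV4 with TRBJ2-5, at 7 clonotypes each.

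Single J segments, singled out after their values were seen and not tested, departed further. TRBJ1-6 made up 0, 0.536 and 0.629% of productive TRBV3 clonotypes in the WT mice and 0.763, 0.467 and 0% in the KO mice, against a mean of 3.07% in other V segments. TRBJ1-2 made up 0, 2.16 and 2.08% of TRBV5 clonotypes in the WT mice and 1.68, 0.870 and 1.89% in the KO mice, against a mean of 5.23%. Both lay below the other V segments in all 6 mice. TRBJ1-2 was used more by TRBV3, at 7.10% ± 1.35 against 4.66%, and was higher in 6 of 6 mice.

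WT and KO mice were then compared for 5 features of the 18 segments. In 13 of 90 cases (14.4%) the 3 WT and 3 KO mice did not overlap, and 4 of these were members (4 segments in 5 features). With 3 mice a group an exact permutation test cannot give a p below 0.10, so these are descriptions. Chance alone would set a share of about 0.10 of cases apart. The cases concerned the TRBJ2 share (4 of 18, 22.2%), the out-of-frame share (4 of 18, 22.2%), the V end kept (3 of 18, 16.7%) and the share of the most abundant clonotype (2 of 18, 11.1%), and CDR3 length in no case (0%).

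For TRBV2 the TRBJ2 share was 59.6, 59.2 and 62.2% in the WT mice and 69.6, 66.3 and 66.5% in the KO mice. For TRBV4 the out-of-frame share given above was 8.40 points higher on average in KO. Each was 1 of 4 segments apart in that feature, and neither remained apart when clonotypes of 1 UMI were included, a setting in which 8 of 90 cases were apart.

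The 2 segments of 18 (11.1%) that were apart in the weight of their largest clonotype were both members. This share is near that of chance, so the values below are descriptions and not a trait of the members. In TRBV3, the most abundant clonotype held 22.2, 20.3 and 30.0% of the segment's UMIs in the WT mice and 12.9, 8.69 and 13.8% in the KO mice. In TRBV5 it held 11.1, 12.7 and 13.2% in the WT mice and 49.7, 15.2 and 27.0% in the KO mice. In TRBV2 and TRBV4 the genotypes overlapped, at 11.7 to 25.0% in WT and 22.2 to 29.9% in KO for TRBV2. The direction of the difference was opposite in TRBV3 and TRBV5, lower in KO for TRBV3 and higher for TRBV5. Both stayed apart with clonotypes of 1 UMI. The values sum the UMIs of both organs, so the larger library of a mouse weighs more. In KO3, TRBV5 had 28148 UMIs in spleen and 222 in mLN. By organ, TRBV3 was apart in spleen (18.2, 19.9 and 29.2% in WT against 16.7, 8.81 and 13.2% in KO) and not in mLN, where KO3 had 22.4%. TRBV5 overlapped in both organs, since KO2 spleen (15.3%) lay below WT1 spleen (17.5%).

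**Figure D5:**
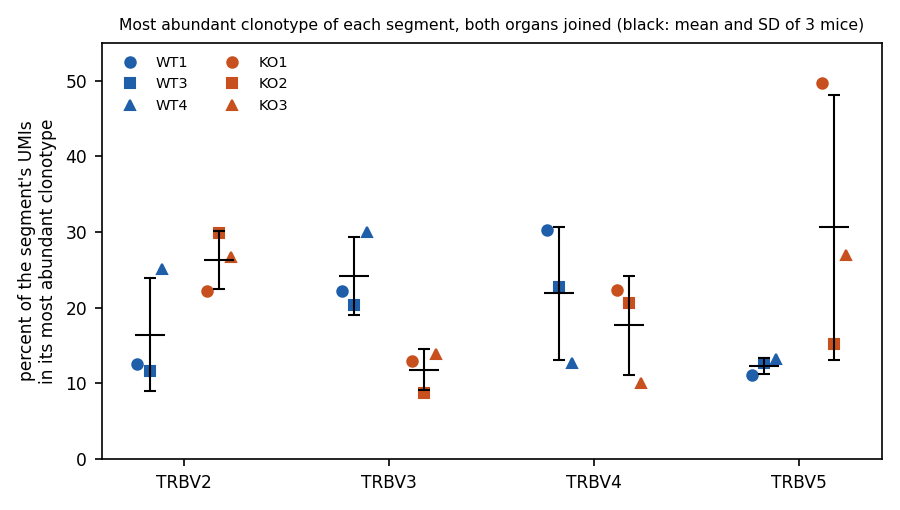
Percent of a segment's UMIs in its most abundant clonotype (vertical axis), both organs joined, 1 point per mouse, with the mean and SD of 3 mice in black. WT and KO points do not overlap for TRBV3 (20.3 to 30.0% against 8.69 to 13.8%) and TRBV5 (11.1 to 13.2% against 15.2 to 49.7%), and they do for TRBV2 and TRBV4.

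The clonotypes behind these values are shown because they carry the largest shares. Capitals mark bases aligned to the V segment.
TRBV5, KO1: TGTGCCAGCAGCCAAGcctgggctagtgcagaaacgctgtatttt
TRBV5, KO3: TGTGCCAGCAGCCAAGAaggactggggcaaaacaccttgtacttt
TRBV3, WT4: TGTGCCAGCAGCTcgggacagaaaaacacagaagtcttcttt
TRBV3, WT1: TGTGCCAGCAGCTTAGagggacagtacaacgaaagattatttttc

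The KO1 clonotype, TRBV5 with TRBJ2-3, made up 6.45% of all spleen UMIs and 3.50% of mLN UMIs, and ranked 3 in both libraries. The KO3 clonotype, TRBV5 with TRBJ2-4, made up 3.26% in spleen and 1.33% in mLN. The WT4 clonotype, TRBV3 with TRBJ1-1, reached 3.20% in spleen and 2.10% in mLN and was second in both. The WT1 clonotype, TRBV3 with TRBJ1-4, made up 1.35% in spleen and 2.40% in mLN. Taking the clonotype with the highest mean over organs for each member and mouse, 24 in all, each was found in both organs of its mouse, and its share was higher in spleen for 12 of them. No sequence was the top clonotype of 2 mice. In 23 of the 24 cases the same nucleotide sequence also occurred in another mouse, at 0.265% of UMIs or less.

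The top clonotypes of TRBV4 kept 9 to 15 V bases, against 13 to 16 in TRBV3, 7 to 17 in TRBV2 and 15 to 17 in TRBV5. The TRBV4 examples from KO2, WT3 and WT1 kept 14, 13 and 9 V bases, and the largest TRBV4 clonotype of KO1 was not productive.
TRBV4, KO2: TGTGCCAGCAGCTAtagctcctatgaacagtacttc
TRBV4, WT3: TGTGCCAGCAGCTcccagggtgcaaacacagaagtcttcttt
TRBV4, WT1: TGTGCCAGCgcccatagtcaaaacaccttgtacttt
TRBV4, KO1: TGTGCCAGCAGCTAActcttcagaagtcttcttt

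The KO1 sequence kept 15 V bases, including the stop codon, is 34 nucleotides long and so out of frame. It made up 0.586% of spleen and 0.261% of mLN UMIs of that mouse and 26.4% of its TRBV4 UMIs in spleen. It was the only non-productive sequence among the 24.

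Most member UMIs belonged to clonotypes present in both organs. Of mLN UMIs, 91.0% ± 5.17 (TRBV2), 93.9% ± 2.83 (TRBV3), 92.5% ± 3.04 (TRBV4) and 92.2% ± 5.10 (TRBV5) were in clonotypes also seen in the spleen of that mouse, against 94.0% ± 3.20 in all other V segments (SD, n = 6). Of spleen UMIs, 84.0 to 88.0% on average were in clonotypes also seen in the mLN, with the lowest values in KO3 (37.0% for TRBV3), whose mLN library was the smallest.

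Few CDR3 amino acid sequences of the members recurred between mice. With at least 2 UMIs in a mouse and clonotypes over 100 times more frequent in another mouse set aside, 24 of 903 TRBV2 sequences (2.66%), 50 of 1396 for TRBV3 (3.58%), 22 of 628 for TRBV4 (3.50%) and 63 of 1430 for TRBV5 (4.41%) occurred in at least 2 mice, against 3.13% in all other V segments. The most widely found was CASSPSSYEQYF of TRBV3 with TRBJ2-7, in 2 WT and 2 KO mice. It was encoded by 4 nucleotide sequences, and the most abundant in each mouse were these, in which the V segment ends before the proline codon.
WT3: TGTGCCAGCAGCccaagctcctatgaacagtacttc
WT4: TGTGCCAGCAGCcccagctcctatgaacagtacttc
KO1: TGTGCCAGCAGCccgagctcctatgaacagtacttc
KO3: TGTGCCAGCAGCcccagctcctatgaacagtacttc

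WT4 and KO3 had the same sequence, and WT3 and KO1 each another proline codon. In sum 77 UMIs carried this CDR3, at no more than 0.0463% of a library. By contrast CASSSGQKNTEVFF, the TRBV3 sequence of the large WT4 clonotype, was also found in KO1 (234 UMIs, same nucleotides) and KO3 (33 UMIs, other nucleotides).

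For TRBV5, 4 sequences were found in 3 mice, and the 3 of these with the most UMIs began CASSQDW. Each of these 3 had the same nucleotide sequence in at least 2 of its mice. TRBV2 had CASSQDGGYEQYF in 3 mice, encoded differently in each and with 4041 of its 4052 UMIs in WT4. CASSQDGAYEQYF, also of TRBV2, was found in 2 KO mice with 42 and 4011 UMIs, all of the same nucleotide sequence. Whether identical sequences passed between libraries was not tested. For TRBV4, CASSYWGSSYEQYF was found in 3 mice with 5, 9 and 10 UMIs. TRBV2 and TRBV5, whose CDR3s start from the same bases, had 36 productive CDR3 amino acid sequences in common, 4.07% of those of TRBV2 and 2.59% of those of TRBV5. Other pairs of members had 4 to 15 in common, at most 2.48% of either list.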

How the data were processed

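TCR beta cDNA libraries of 12 samples (6 mice, spleen and mLN) were prepared with a MiLaboratory kit, sequenced, collapsed by UMI with MIGEC and assembled with MiXCR by the authors, who deposited 1 clonotype table per library. The deposited counts are UMIs per clonotype, and the deposited fraction is that count divided by the library total. Tool versions and the V and J reference are not given in the sources used here.

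UMIs were summed per V segment, and a segment that reached 10 UMIs in 3 or more libraries was tested with edgeR 4.0.16 (quasi-likelihood, library totals as offsets, R 4.3.3). The organ and genotype by organ fits had the mouse as a block (same-mouse deviations correlated at 0.41 to 0.85 in 6 pairs). DESeq2 1.42.0 was an alternative. Features were computed on clonotypes with at least 2 UMIs, for 18 segments with at least 10 clonotypes in every mouse. They were tested by an exact two-sided sign-flip test over 6 mice, written in Python 3.11.15. Wilson intervals came from SciPy 1.17.1. P-values were adjusted by Benjamini-Hochberg over all segments, separately in each of 4 usage comparisons and 6 feature comparisons. The tests were tested on simulated data. The members and lists were chosen with earlier results of these data known, and all 4 members were named whatever their values. Each group was 3 mice of 1 experiment, and library totals ranged from 2488 to 493287 UMIs.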

Additional observations from a re-analysis of the deposited data

Results flagged for a closer look

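In 36 tests for a mouse far from the other 5, of which chance alone marks about 1 in 20, 3 values stood apart, from KO3 and KO2. KO3 had a TRBV2 share of 9.06% of UMIs as the mean of both organs. KO3 also had the highest share of in-frame TRBV3 clonotypes with a stop codon, at 1.82% (3 of 165). KO2 had the highest share of TRBV5 UMIs in non-productive clonotypes, at 9.72%.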

How the results depend on the processing

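No member passed a usage test under any alternative run, and of the alternative usage values of members 236 kept their direction and call and 32 changed sign. Of the feature values of members, 125 kept both, 18 lost and 2 gained a call, and 11 changed sign. The spleen comparison, with 2 calls, gave 1 with DESeq2, 1 with no filter, 1 with clonotypes per segment, 1 without clonotypes of 1 UMI, 0 after thinning to 2488 UMIs and 0 to 1 when a replicate was left out. DESeq2 gave 1 call between organs, and clonotypes per segment gave 2 calls for genotype by organ. The replicate numbers that WT and KO share belong to different mice (same-number correlations of -0.043 to 0.33 in 4 pairs). With the replicate number as a block, spleen gave 0 calls and mLN 2, and without the mouse as a replicate block the organ comparison gave 0. CDR3 length gave 0 calls with clonotypes of 1 UMI included, with at least 10 UMIs, weighted by abundance and in spleen only, and the V end kept gave 0 with at least 10 UMIs and when weighted. An adjusted p below 0.05 needs 12 of 18 segments at the smallest p, so these calls stand or fall together. With clonotypes of 1 UMI, 8 of 90 features did not overlap between WT and KO.

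No value that changed sign passed its test, either as reported or under the alternative. On the log2 scale, TRBV5 in mLN (KO over WT) was -0.067 with clonotypes per segment. Between organs, TRBV2 was -0.0037 with TMM scaling and -0.070 with DESeq2, TRBV3 was -0.026 with TMM, -0.096 with DESeq2, -0.021 with clonotypes and -0.013 when thinned, and TRBV4 was -0.0049 with DESeq2. For genotype by organ, TRBV2 was -0.17 with clonotypes, -0.0076 without those of 1 UMI, -0.0012 in frame only, -0.28 when thinned and -0.0028 without unusual J ends, TRBV3 was 0.23 with TMM, 0.032 with DESeq2 and 0.19 with clonotypes, and TRBV4 was 0.10 with TMM and 0.061 with clonotypes. With replicates left out, the ranges were -0.55 to 0.11 for TRBV4 in spleen, -0.092 to 0.42 for TRBV5 in mLN, -0.078 to 0.15 for TRBV2 and -0.071 to 0.079 for TRBV3 between organs, and -0.30 to 0.29 for TRBV2, -0.17 to 0.18 for TRBV3 and -0.36 to 0.015 for TRBV4 for genotype by organ. The TRBJ2 difference, in points, was 4.45 for TRBV2 and -1.71 for TRBV4 with clonotypes of 1 UMI, 7.37 for TRBV2, -1.05 for TRBV3, -2.09 for TRBV4 and -3.67 for TRBV5 when weighted, and for TRBV5 -3.83 with at least 10 UMIs and -0.33 in spleen only. With clonotypes of 1 UMI the stop share difference was 0.26 points for TRBV3 and 0.27 for TRBV5, and TRBV2 kept 0.16 more V bases in productive than in out-of-frame clonotypes. The cause was not tested. The in-frame stop share, the V end by frame and the setting without indel copies were chosen after seeing the data.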
